A study of Homo sapiens with 12 samples.

Results

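Bound RNA was compared between the truncated, zinc-finger-mutated form of ZC3H18 (Z18truncZnFmut, 3 libraries) and the full-length protein (Z18fl, 3 libraries), which together make up 6 of the 12 libraries of the series. All 12 are anti-V5 PAR-CLIP libraries from A375, an established human melanoma line. In this assay a photoactivatable nucleoside is built into new RNA, ultraviolet light joins it to the proteins it touches, and an antibody to the tag recovers protein and RNA. Every group was transiently transfected with a V5-tagged construct 24 h before labelling: Clover, a fluorescent protein, as the control, Z18fl, Z18trunc, which lacks the C-terminal part that recruits RNA degradation machinery, and Z18truncZnFmut, the same truncated protein with aromatic residues of its zinc finger changed. Z18truncZnFmut and Z18fl therefore differ by truncation and mutation together, and the Z18trunc and Clover libraries are set beside them to place each value. The endogenous ZC3H18 gene was left in place in all groups, and the files list repeat elements alone, so neither the transgene nor the labelled cell line could be checked against its own genes.

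ZC3H18 is a nuclear protein with a CCCH zinc finger, a fold that in many proteins contacts single-stranded RNA. It links capped transcripts to NEXT and PAXT, which bring RNA to the nuclear exosome for decay. Substrates of these pathways include promoter-antisense and intergenic transcripts, RNA of transposable elements and extended precursors of small nuclear and nucleolar RNAs. Transposable elements are repeats left by mobile DNA: LINEs and SINEs (Alu among them), endogenous retroviruses with their long terminal repeats (LTRs), and DNA transposons such as Tigger. Most copies lie inside genes and are read as part of introns or untranslated regions, so a count on an element can come from the transcript that carries it.

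A small set of sequences shows the elements that the results below turn on. They were read from hg38 on the strand of the element, 5′ to 3′. The first group holds the element that fell most and passed the rule for naming (FRAM, an Alu monomer, at chr1:228103818-228103954, plus strand) and an intronic element named among the gains (MIR3 at chr9:35726749-35726891, minus strand).
FRAM: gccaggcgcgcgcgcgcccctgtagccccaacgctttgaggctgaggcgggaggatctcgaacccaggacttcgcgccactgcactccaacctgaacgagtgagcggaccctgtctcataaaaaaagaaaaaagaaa
MIR3: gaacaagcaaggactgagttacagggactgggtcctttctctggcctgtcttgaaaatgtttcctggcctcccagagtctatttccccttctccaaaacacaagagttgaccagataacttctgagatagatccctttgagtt
Neither holds a run of 4 T. Among elements of 100 to 200 bases that were tested, 29.7% (583 of 1962) hold one. The share was 21.4% (30 of 140) in those that rose and 27.1% (46 of 170) in those that fell.

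The second group holds small RNA repeats. U17 is the copy with the most counts of that nucleolar RNA (chr1:28507365-28507571, plus strand), and U1, the spliceosomal RNA that pairs with 5′ splice sites, is shown by its copy at chr1:16514122-16514285 (minus strand), with the letters AATTTGTGG, the Sm protein site, in capitals. The 3 U14 copies (chr11:123059335-123059422, chr11:123058909-123058995 and chr11:123058077-123058156, all minus strand) lie in the heat shock gene HSPA8, and capitals mark TGATGA and CTGA, the letters within box C and of box D, which C/D small nucleolar RNAs carry near their ends. The copy at 123058909 holds no CTGA.
U17: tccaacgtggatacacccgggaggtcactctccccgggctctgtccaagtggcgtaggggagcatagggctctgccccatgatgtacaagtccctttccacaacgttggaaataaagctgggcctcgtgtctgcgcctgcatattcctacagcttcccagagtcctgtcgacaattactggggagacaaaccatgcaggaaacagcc
U1: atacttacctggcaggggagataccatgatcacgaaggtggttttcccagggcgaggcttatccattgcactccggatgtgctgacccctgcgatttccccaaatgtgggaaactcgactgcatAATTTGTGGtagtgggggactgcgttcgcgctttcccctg
U14, copy at 123059335: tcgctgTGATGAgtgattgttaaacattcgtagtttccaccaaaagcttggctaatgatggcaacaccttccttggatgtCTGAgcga
U14, copy at 123058909: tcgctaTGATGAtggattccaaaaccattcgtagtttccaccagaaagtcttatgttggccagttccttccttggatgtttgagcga
U14, copy at 123058077: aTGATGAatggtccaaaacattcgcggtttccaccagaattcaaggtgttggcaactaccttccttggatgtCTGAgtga
The letters were searched on the element's strand. TGATGA occurs in 2.5% (8 of 320) and CTGA in 45.3% of tested elements of 70 to 100 bases, and AATTTGTGG in 0.0966% (1 of 1035) of those of 140 to 190 bases. The U14 copies share 84.1%, 76.1% and 78.2% of their bases in order, pair by pair, so a read can often be told apart between them.

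Counts on the strand of transposable elements came to 1198654, 1132267 and 1414945 in Z18fl replicates 1 to 3 and to 1286490, 1096500 and 2183589 in Z18truncZnFmut, out of 21285347 to 25686948 aligned fragments. Z18truncZnFmut replicate 3 stood apart from the other 11 libraries. It listed 1411138 elements against 282324 to 695379, and its element counts on both strands were 16.3% of aligned fragments against 6.28% to 9.59%. Its share on the element's strand was 55.4% against 60.3% to 64.0%, and 26.8% of its element counts fell on tested loci against 42.3% to 53.6%. Counts over groups of elements, subfamilies and families are therefore given with all 6 libraries and without that replicate. Values of single elements are from all 6 libraries where nothing else is said. Nothing in the sources says that replicates came from separate cultures, so p-values measure the spread between these libraries, which may be technical. In an immunoprecipitate, more RNA in the cell and more binding per molecule cannot be told apart.

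Single elements were tested first, to ask where in the genome bound RNA differed between the proteins. Elements in 3′ untranslated regions, between genes and antisense to genes rose more often than they fell in Z18truncZnFmut, and elements in introns, 5′ untranslated regions and other exons fell more often than they rose. Of 17052 elements tested, 1529 rose (8.97%) and 1136 fell (6.66%) by edgeR at an adjusted p under 0.05. Without replicate 3 of the mutant, 1141 of 21114 rose (5.4%) and 841 fell (3.98%). With replicate number added to that fit as a block, 1.78% rose and 1.17% fell. The fits with and without replicate 3 share all other libraries, so agreement between them is no independent support. They called 984 elements higher and 695 lower in common and none in opposite directions. All 2665 elements called with 6 libraries had the same sign without replicate 3. Leaving out Z18fl replicate 1, 2 or 3 in place of it gave 755, 751 and 808 higher and 568, 565 and 619 lower, and leaving out mutant replicate 1 gave 716 lower. With library sizes taken from aligned fragments in place of TMM scaling, which shifted all elements by a median of -0.13 on the log2 scale, 870 rose and 1389 fell, so the balance of gains and losses rests on the scaling. Differences between groups of elements below were read against the median of all elements.

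In 3′ untranslated regions, 463 of 2636 elements rose (17.6%) and 82 fell (3.11%), with a median log2 fold change of 0.36. Without replicate 3 the counts were 391 and 57 of 2937, with a median of 0.40, and with sizes from aligned fragments the median was 0.23. Antisense elements rose in 225 and fell in 89 of 1653 cases (median 0.27), and intergenic elements in 354 and 136 of 2996 (median 0.20). Without replicate 3 the counts were 153 and 61 of 2019 antisense (median 0.24) and 239 and 121 of 3647 intergenic elements (median 0.14). The intergenic median was 0.07 with sizes from aligned fragments.

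Intronic elements moved the other way, with 433 higher and 643 lower of 8212 and a median of -0.11 (317 and 472 of 10611 and -0.13 without replicate 3). Elements in exons that are neither coding nor untranslated parts of a coding transcript, such as exons of noncoding RNAs, had 47 higher and 161 lower of 1366 (median -0.27, and -0.26 without replicate 3). In 5′ untranslated regions 4 rose and 16 fell of 129 (median -0.25), and in coding exons 3 rose and 9 fell of 60 (median -0.16). Without replicate 3 the counts were 34 and 106 of 1680 in other exons, 5 and 15 of 155 in 5′ untranslated regions (median -0.29) and 2 and 9 of 65 in coding exons (median -0.05). The median of 3′ untranslated regions was the highest in these fits and with sizes from aligned fragments. The lowest was that of other exons with 6 libraries under either scaling and that of 5′ untranslated regions without replicate 3. The split of exons into untranslated and coding parts was made after the data were seen.

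**Figure D1:**
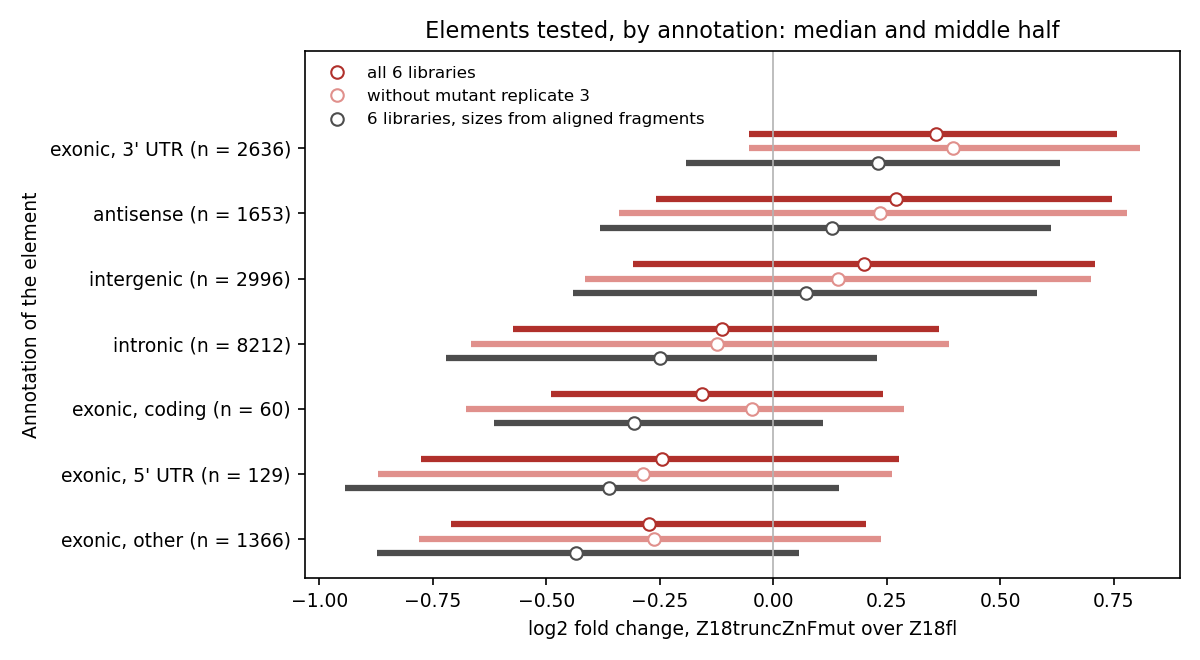
Median (open point) and interquartile range (bar) of the log2 fold change of Z18truncZnFmut over Z18fl for the elements of each annotation, in the fit of 6 libraries, the fit without mutant replicate 3, and the fit with library sizes from aligned fragments. Elements in 3′ untranslated regions have medians of 0.36, 0.40 and 0.23, and the median of intronic elements lies below 0 in all 3 fits, with bars that cross 0.

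Gains were spread over 835 genes, with at most 8 elements in 1 gene (MDM2, the p53 ubiquitin ligase), and losses over 730 genes, with at most 6 (CCDC144NL-AS1, a noncoding RNA). AluSx was the subfamily with most elements that rose (92 of 1529) and Tigger1 the one with most that fell (63 of 1136). These are parts of the calls. The numbers of AluSx and Tigger1 elements tested are not given here, so no rate can be read from them. Base content differed little. The median T content was 20.4% in all tested elements, 19.7% in those that rose and 21.2% in those that fell, and 21.6% in intronic elements that fell against 20.5% in all intronic elements.

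Tigger elements, fossil DNA transposons related to pogo, fell most often among the families examined. Of 394 TcMar-Tigger elements tested, 97 fell (24.6%) and 2 rose, with a median log2 fold change of -0.57. In introns 77 of 265 fell and none rose (median -0.71), and outside introns 20 of 129 fell and 2 rose (median -0.18). Without replicate 3 the counts were 77 lower and 2 higher of 474. With sizes from aligned fragments 113 of 410 fell and 1 rose.

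ERV1 elements, the class I endogenous retroviruses that include HERVH, HERV9 and HERVE, had 156 of 716 higher (21.8%) and 34 lower (4.75%) outside introns, and 26 of 378 higher (6.88%) and 33 lower (8.73%) in introns, where all intronic elements had 5.27% and 7.83%. Without replicate 3 these counts were 116 and 25 of 808 outside and 18 and 22 of 451 inside. The difference between the places was not tested. Of all tested elements, 17.6% rose and 3.11% fell in 3′ untranslated regions, 13.6% and 5.38% antisense, and 11.8% and 4.54% between genes. In other exons 3.44% rose and 11.8% fell, and 5′ untranslated and coding elements also fell more often. Whether ERV1 or Alu elements departed from these places was not tested. Alu elements, the primate SINEs, had 520 higher and 171 lower of 3426 outside introns and 216 higher and 197 lower of 3069 inside, or 420 and 126 of 4117 and 177 and 119 of 4249 without replicate 3. With sizes from aligned fragments the intronic Alu counts turned to 122 higher and 240 lower. Over all tested elements 8.97% rose and 6.66% fell, or 5.4% and 3.98% without replicate 3. L1, the active LINE family of the human genome, had 380 higher and 287 lower of 5399. MIR, an ancient SINE, had 52 and 89 of 918, and ERVL-MaLR, the family of THE1 and MLT1, 55 and 85 of 846. Without replicate 3 the counts were 233 and 229 of 6311 for L1, 45 and 67 of 1255 for MIR and 37 and 69 of 1073 for ERVL-MaLR.

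The elements that rose most under the naming rule lay in 3′ untranslated regions. That rule admits only called elements without overlap between the groups, so their separation was fixed by the choice. LTR89 (chr4:5814195-5814334, plus strand), in the 3′ untranslated region of EVC, a gene of ciliary hedgehog signalling, gave 0.95, 1.22 and 0.973 counts per 1000000 aligned fragments (CPM) in Z18fl and 2.44, 3.85 and 1.28 in Z18truncZnFmut, against 3.24, 2.73 and 3.34 in Clover and 1.81, 1.49 and 1.73 in Z18trunc. The mutant libraries all lay above the Z18fl libraries, with replicate 3 the nearest, and the log2 fold change was 1.39 (SE 0.34, edgeR adjusted p = 0.0092). Without replicate 3 it was 1.71. CPM values are scaled to aligned fragments and fold changes to TMM sizes, so the ratio of CPM values is not the fitted fold change, above all for replicate 3.

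MLT1F in the 3′ untranslated region of CD96 (chr3:111651471-111651600, plus strand), an immune receptor gene, had 1.9, 1.53 and 1.4 CPM in Z18fl and 2.52, 3.9 and 2.77 in Z18truncZnFmut, with 3.42, 3.86 and 5.71 in Clover. L1PB1 in that of NFX1 (chr9:33348367-33348502, plus strand), which codes for a zinc-finger regulator of transcription, had 2.07, 2.22 and 2.37 CPM in Z18fl and 3.97, 3.57 and 4.67 in Z18truncZnFmut. The log2 fold changes of MLT1F and L1PB1 by edgeR were 1.06 (adjusted p = 0.00913) and 1.0 (adjusted p = 0.00358). The printed MIR3, in an intron of TLN1, the gene of the focal adhesion protein talin, was named by the fit without replicate 3. It had 0.95, 0.654 and 1.09 CPM in Z18fl and 2.4, 2.35 and 1.36 in Z18truncZnFmut, a log2 fold change of 1.30 (adjusted p = 0.00632) with all 6 libraries. At all 4 elements every Z18fl library also lay below every Clover library.

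The printed FRAM fell most. It lies antisense to C1orf35 and had 2.74, 4.18 and 3.78 CPM in Z18fl, 0.987, 0.95 and 1.1 in Z18trunc, 0.579, 0.376 and 0.372 in Z18truncZnFmut and 0.42, 0.585 and 0.226 in Clover. The mutant was in the range of Clover, and the log2 fold change was -2.87 (SE 0.30, adjusted p = 8.77e-06), or -2.76 without replicate 3. The fitted difference of Z18fl from Clover was 2.70 (adjusted p = 3.19e-07) and that of the mutant from Clover -0.25 (adjusted p = 0.757).

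The other elements at the low end lay in exons. AluJb in SNAPC4 (chr9:136393927-136394213, minus strand), a subunit gene of the complex that transcribes snRNA genes, had 3.89, 3.05 and 3.27 CPM in Z18fl and 1.41, 0.705 and 0.702 in Z18truncZnFmut (log2 fold change -1.73, adjusted p = 0.000352). OldhAT1, a DNA transposon remnant in coding sequence of PAIP2 (chr5:139364660-139364781, plus strand), which encodes an inhibitor of the poly(A)-binding protein, had 2.94, 2.7 and 1.83 CPM against 0.745, 0.752 and 0.619 (log2 fold change -1.70, adjusted p = 0.00107). The rule was met by 3 elements that rose and 14 that fell with 6 libraries, and by 9 and 9 without replicate 3.

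Elements with many counts, at least 500 on average, gave the most precise values. They were picked out after their values were seen, and lack of overlap between the groups was part of the choice: 30 rose and 7 fell in both fits. The number tested at that level is not given here. No share can therefore be set against the 8.97% and 6.66% of all elements that rose and fell. The highest was an intergenic HERVH provirus on chromosome 1, with internal sequence HERVH-int flanked by LTR7 promoters. Its main internal piece (chr1:68386440-68389684, plus strand) had 243, 285 and 288 CPM in Z18fl, 384, 409 and 333 in Z18trunc, 507, 559 and 560 in Z18truncZnFmut and 499, 504 and 568 in Clover. Z18fl was lowest and the mutant and Clover overlapped. The log2 fold change was 1.13 (SE 0.12, adjusted p = 1.34e-05), and 1.10 without replicate 3.

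LTR12 elements are the promoters of HERV9 proviruses, and 3 with many counts that rose are given here. LTR12C at chr1:154677855-154679312 (plus strand) had 16.3, 16.1 and 13.9 CPM in Z18fl, 30.3, 30 and 31.2 in Z18trunc, 39.8, 36.5 and 31.6 in Z18truncZnFmut and 48, 52 and 44.6 in Clover (log2 fold change 1.34, adjusted p = 1.74e-05). LTR12D antisense to RAB11B-AS1 (chr19:8386396-8387101, plus strand) had 7.04, 8.75 and 7.24 CPM in Z18fl and 24.7, 23 and 19.9 in Z18truncZnFmut, with 23.6, 24.7 and 23.1 in Clover (log2 fold change 1.67, SE 0.17, adjusted p = 5.76e-06). A further LTR12C at chr11:67626395-67627042 (plus strand) had 11, 11.3 and 10.7 CPM against 30.2, 26.6 and 20. In each of these LTRs the mutant lay above Z18fl in all 3 libraries, which the choice of elements without overlap required.

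Among elements with many counts that fell, 1 lay in HSP90AA1 and 1 in HSPA8, both chaperone genes. L1M4c in the 3′ untranslated region of HSP90AA1, the inducible HSP90 gene (chr14:102083056-102083143, minus strand), had 63.4, 63.9 and 68.6 CPM in Z18fl, 30.9, 31.3 and 32.7 in Z18trunc, 21.1, 20.5 and 15.2 in Z18truncZnFmut and 14.9, 15.8 and 14.8 in Clover. Mutant replicate 3 lay in the range of Clover and the groups were otherwise separate, and the log2 fold change was -1.66 (SE 0.15, adjusted p = 2.46e-06). In HSPA8, which encodes the constitutive HSP70 chaperone, LFSINE_Vert in coding sequence (chr11:123061210-123061308, minus strand) had 21.8, 26.5 and 22.7 CPM in Z18fl and 11.7, 11.4 and 11.5 in the mutant, with 13.3, 11 and 11.1 in Clover (log2 fold change -0.92, adjusted p = 0.000804). MamRTE1, with fewer counts and looked up after these values were seen, in the 5′ untranslated region of HSPA8 (chr11:123060106-123060228, minus strand), an ancient LINE fragment, fell by 1.24 on the log2 scale (adjusted p = 0.000211), from 10.5, 14 and 12.1 CPM to 5.75, 3.85 and 4.62.

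AluSc in the 3′ untranslated region of RSL1D1 (chr16:11837358-11837647, minus strand), a ribosome biogenesis gene, went against the lean of that annotation, with 39.4, 43.3 and 42.8 CPM in Z18fl, 19.5, 17.9 and 17.1 in Z18truncZnFmut and 19.1, 16.4 and 16.4 in Clover (log2 fold change -1.08, adjusted p = 7.17e-05). ERV3-16A3_I-int (chr17:43288119-43288477, minus strand), an endogenous retrovirus fragment in an intron of CCDC200 beside copies of the U2 gene, had 26.1, 15.2 and 23.8 CPM in Z18fl, 20.2, 12.9 and 20.4 in Z18trunc, 5.22, 9.08 and 1.81 in the mutant and 0.761, 0.155 and 0.346 in Clover. Here Z18fl and Z18trunc overlapped and the mutant lay between them and Clover (log2 fold change -1.89, adjusted p = 0.000871).

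**Figure D2:**
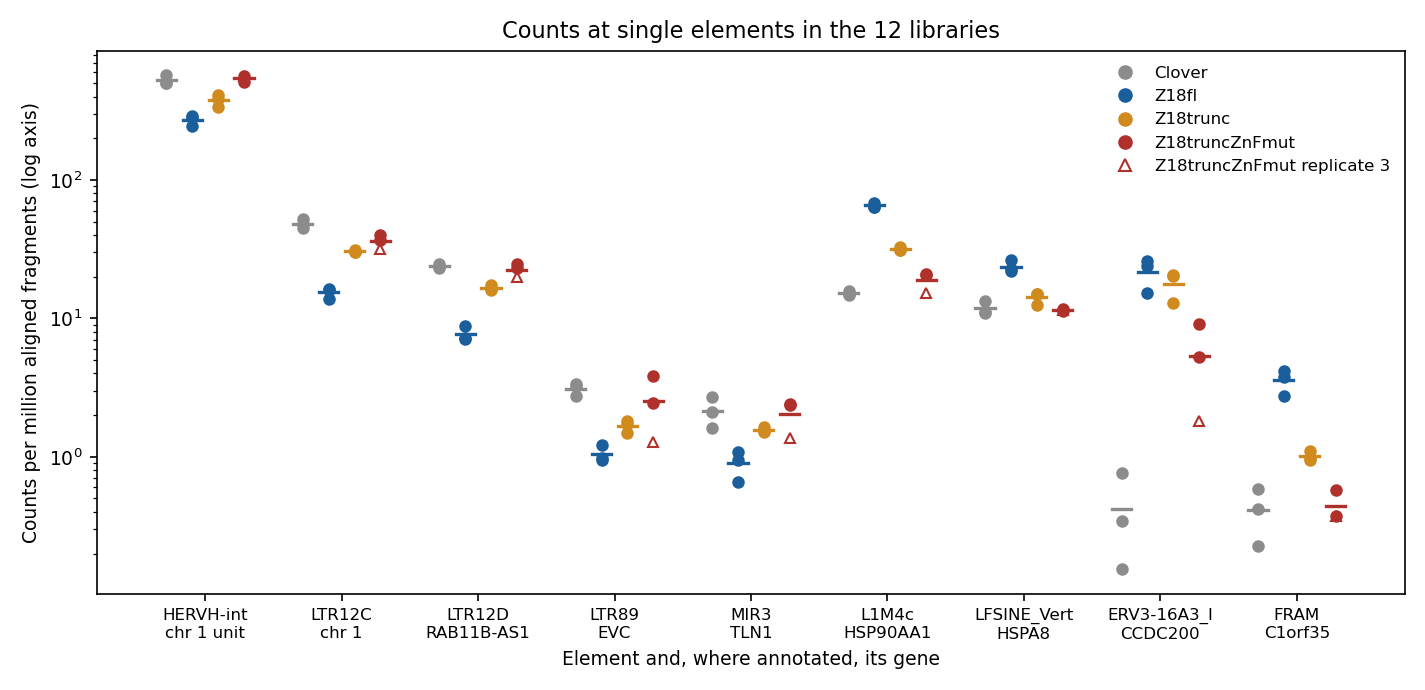
CPM on a log axis at 9 single elements, in all 12 libraries; points are libraries, short bars group means and the open triangle mutant replicate 3. The 5 elements on the left had the lowest values in Z18fl, and the 4 on the right had the lowest values of the 3 ZC3H18 groups in Z18truncZnFmut.

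Among the elements of named subfamilies, Tigger1 in an intron of AK3 (chr9:4725912-4728263, minus strand), a mitochondrial adenylate kinase gene, had 16.3, 14.2 and 18.2 CPM in Z18fl and 7.49, 7.19 and 6.15 in Z18truncZnFmut (log2 fold change -1.09, adjusted p = 0.000178). Its Z18trunc values, 8.87, 8.84 and 8.24, lay nearer to the mutant. The larger of a pair of Tigger5 pieces in the 5′ untranslated region of PTRH2 (chr17:59699341-59700155, minus strand), a mitochondrial peptidyl-tRNA hydrolase gene, had 6.78, 7.1 and 7.76 CPM against 3.41, 2.32 and 3.62 (adjusted p = 0.00117). Tigger3 in introns of PIAS1, a SUMO ligase gene, and ADNP, a chromatin regulator gene, fell by 0.88 and 0.87 on the log2 scale.

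Copies of some endogenous retrovirus subfamilies that are described below fell too. HERVE_a-int (chr18:55950851-55955090, plus strand) had 15.3, 15 and 15.8 CPM in Z18fl, 6.6, 7.97 and 7.6 in Z18trunc, 4.22, 5.26 and 4.45 in the mutant and 1.32, 1.23 and 1.81 in Clover, in 4 separate groups (log2 fold change -1.60, SE 0.17, adjusted p = 1.19e-05). HERV3-int at chr11:29519152-29527353 (plus strand) fell by 1.64 on the log2 scale (adjusted p = 0.000119), from 4.66, 4.88 and 4.67 to 1.28, 1.13 and 1.73 CPM. The HERV3-int copy with most counts, in an intron of ZNF117 (chr7:64990916-64999343, minus strand), had a smaller change (log2 fold change -0.66, adjusted p = 0.0185). HERVL18-int at chr2:78106057-78112068 (minus strand) had 4.62, 4.31 and 4.36 CPM in Z18fl and 1.65, 1.41 and 2.4 in the mutant (log2 fold change -1.15, adjusted p = 0.00249).

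Counts were next summed over each subfamily, which avoids the choice among near-identical copies. With all 6 libraries, 4 of 973 subfamilies fell (0.411%) and none rose (0.0%) by edgeR. At an unadjusted p under 0.05, 59 were higher and 67 lower (12.9% together), and DESeq2 called 4 higher and 13 lower. Without mutant replicate 3, 66 of 978 rose (6.75%) and 40 fell (4.09%). Of 105 subfamilies called there and also tested with 6 libraries, 102 had the same sign in both fits, which share all other libraries. With replicate number added as a block, the fit without mutant replicate 3 called 4 higher and 3 lower. Sums restricted to the tested loci kept all 6 libraries and gave 95 higher (13.5%) and 87 lower (12.3%) of 706, and 88 of the 104 subfamilies called without replicate 3 and present in that fit were called there in the same direction. This restriction was chosen with the values in view, and the fits share libraries.

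The 4 subfamilies that fell with all 6 libraries also fell without replicate 3. None of the 4 passed with all 6 libraries and sizes from aligned fragments, in unique reads or in reads on either strand, nor when any Z18fl library or mutant replicate 2 was left out, and all 4 kept a negative value. HERVL18-int had 21.1, 18.6 and 19.5 CPM in Z18fl, 9.14, 9.54 and 20.3 in Z18truncZnFmut and 6.95, 6.55 and 5.04 in Clover. Mutant replicate 3 thus lay within the Z18fl range on this scale, and the call with 6 libraries (log2 fold change -1.05, SE 0.13, adjusted p = 0.0276) came after TMM scaling gave that library a factor of 1.35. Without it the log2 fold change was -0.94 (adjusted p = 0.000109).

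Tigger5 had 15.5, 17.1 and 17.2 CPM in Z18fl and 7.28, 7.05 and 12.9 in the mutant, with 6.95, 4.21 and 4.58 in Clover (log2 fold change -1.26, adjusted p = 0.0276, and -1.07 without replicate 3). The pair of pieces in the 5′ untranslated region of PTRH2 held 80.5% of the Tigger5 counts, so this fall came largely from that place. Tigger3 had 17.7, 19.8 and 20.2 CPM in Z18fl and 10.5, 8.95 and 24.7 in the mutant (-0.88, adjusted p = 0.0322, and -0.84 without replicate 3). U14, which guides methylation and processing of ribosomal RNA, had 3.37, 3.09 and 3.54 CPM in Z18fl, 3.07, 2.4 and 2.28 in Z18trunc, 1.03, 0.893 and 1.73 in the mutant and 0.48, 0.935 and 0.566 in Clover (-1.86, adjusted p = 0.0276, and -1.64 without replicate 3). For Tigger5 and U14 no mutant library reached the Z18fl range.

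The Tigger list was led by losses. Without replicate 3, 8 of 39 subfamilies fell and none rose, with a median log2 fold change of -0.18 against 0.01 over all 978 subfamilies. With 6 libraries 2 fell (median -0.21), and over tested loci 13 of 29 fell and none rose (median -0.40). Tigger1, the subfamily with the most counts, had 503, 516 and 560 CPM in Z18fl, 428, 438 and 448 in Z18trunc, 321, 308 and 585 in the mutant and 226, 194 and 202 in Clover. Its log2 fold change was -0.60 (adjusted p = 0.0014) without replicate 3 and -0.77 (adjusted p = 0.218) with it. The Charlie list, the hAT transposons, had 2 lower and none higher of 48 without replicate 3 and no call with it (median -0.11 in both).

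Of 10 HERV9 and LTR12 subfamilies, 6 rose and none fell without replicate 3, with a median of 0.50. With all 6 libraries none was called, 4 had negative values and the median was 0.16. Those that rose were HERV9-int, HERV9N-int, LTR12D, LTR12, HERV9NC-int and LTR12C, with log2 fold changes of 0.89, 0.80, 0.78, 0.75, 0.61 and 0.39. With sizes from aligned fragments and the same 5 libraries, 5 of 10 rose (median 0.36) and LTR12C was no longer called. With all 6 libraries LTR12C had 0.04 (adjusted p = 0.975). HERVH and LTR7 subfamilies had 4 higher and none lower of 20 without replicate 3 (median 0.23) and no call with it (median 0.14). HERVH-int itself had 666, 764 and 777 CPM in Z18fl, 989, 1036 and 837 in Z18trunc, 1226, 1358 and 1559 in the mutant and 1169, 1125 and 1346 in Clover, a log2 fold change of 0.95 (adjusted p = 8.07e-05) without replicate 3 and 0.64 (adjusted p = 0.445) with it. The provirus piece on chromosome 1 held 38.4% of these counts.

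Other endogenous retrovirus subfamilies fell without replicate 3: HERVE_a-int by 1.09 (adjusted p = 3.35e-05), HERV3-int by 0.73 (adjusted p = 0.00076), THE1B-int by 0.48 (adjusted p = 0.00694) and HERVK9-int by 0.43 (adjusted p = 0.0098) on the log2 scale. None of these passed with 6 libraries, where HERVE_a-int had a log2 fold change of -1.35 (adjusted p = 0.0568). THE1-int, by contrast, rose by 0.99 and MER57A-int, with 77.0% of its counts in 1 element of PYGB, by 0.58 without replicate 3, with 0.57 (adjusted p = 0.614) and 0.30 (adjusted p = 0.639) in all 6 libraries. The ERVK list had 4 higher and 3 lower of 95 without replicate 3 and no call with it. Several of these sums were held by few copies. THE1-int had 66.7% of its counts in 1 element on chromosome 19, and HERVE_a-int 62.3% in neighbouring pieces on chromosome 18. HERV3-int had 56.3% in its copies on chromosomes 7 and 11. Sums of endogenous retroviruses were thus called in both directions without replicate 3, which need not describe whole subfamilies.

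AluS subfamilies had 8 higher and none lower of 17 without replicate 3 (median 0.27), AluY 3 higher and 1 lower of 23, and AluJ 1 higher of 4. With all 6 libraries none was called and the medians were -0.02, -0.02 and -0.07, so the direction of these lists turned with that library. Their fold changes were small: AluY itself rose by 0.33 (adjusted p = 0.0294) and AluJb by 0.31 (adjusted p = 0.0317) without replicate 3, with 0.03 and 0.0046 in all 6 libraries. With sizes from aligned fragments and the same libraries, 0 of 17 AluS subfamilies were called by edgeR (median 0.13), so these calls rest on the scaling. Young L1 subfamilies had no call in 7 in either fit, and L1ME had 2 lower of 27 without replicate 3 and none with it.

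**Figure D3:**
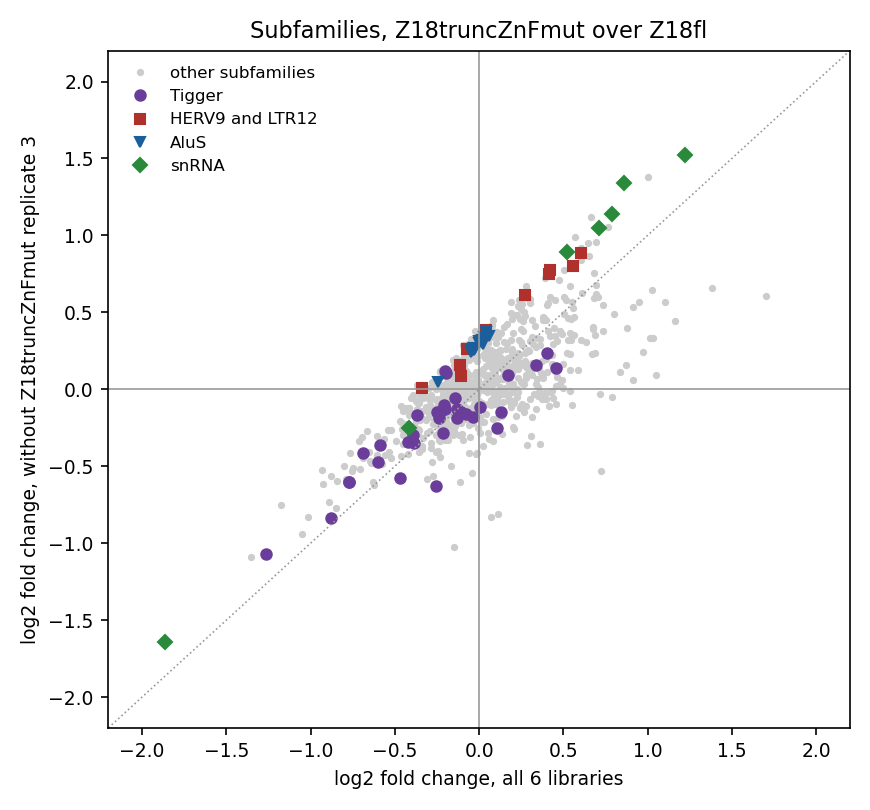
Log2 fold change of Z18truncZnFmut over Z18fl for 788 subfamilies with at least 50 mean counts, with all 6 libraries (x axis) and without mutant replicate 3 (y axis); the dotted line marks equal values. Tigger points lie mainly in the lower left, and HERV9 and LTR12 points and most snRNA points above 0 on the y axis.

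Small RNA repeats were given as sums over copies, because most of their reads map to many copies. The snRNA list, spliceosomal and nucleolar RNAs together, had 5 higher and 1 lower of 10 without replicate 3, with a median log2 fold change of 0.73 (0.36 with all 6 libraries), and the same counts with sizes from aligned fragments (median 0.59). With 6 libraries U14 alone was called. U1 had 239, 224 and 211 CPM in Z18fl, 260, 313 and 275 in Z18trunc, 513, 665 and 729 in Z18truncZnFmut and 539, 677 and 462 in Clover. All mutant libraries lay above all Z18fl libraries and within or near the Clover range. The log2 fold change was 1.52 (adjusted p = 3.35e-05) without replicate 3 and 1.22 (adjusted p = 0.218) with it. In uniquely mapping reads alone it was -0.29 with 6 libraries and -0.0019 without replicate 3, so the gain was carried by reads shared between copies. The printed copy had a mean mapping score of 3.17, the percent of aligning reads assigned to it, and its CPM ran from 1.65 to 29.1 in Z18fl, so no single U1 copy is given a value of its own.

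U17 and U3 are nucleolar RNAs needed for processing of ribosomal RNA. U17 had 325, 250 and 302.1 CPM in Z18fl, 341, 323 and 365 in Z18trunc, 535, 636 and 593 in the mutant and 474, 539 and 544 in Clover, a log2 fold change of 1.14 (adjusted p = 0.000109) without replicate 3 and 0.79 (adjusted p = 0.397) with it. The printed U17 copy held 57.1% of these counts. U3 had 122, 69.8 and 103 CPM in Z18fl and 232, 219 and 109 in the mutant, where replicate 3 fell within the Z18fl range (1.34, adjusted p = 0.000751, and 0.86, adjusted p = 0.56, with it). U14 fell in the same libraries in which U17 and U3 rose.

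U2 and U4, both spliceosomal, rose without replicate 3 by 0.89 (adjusted p = 0.00729) and 1.05 (adjusted p = 0.00694) on the log2 scale, with 0.52 (adjusted p = 0.625) and 0.71 (adjusted p = 0.465) in all 6 libraries. In uniquely mapping reads without replicate 3, U2 had 0.45 (adjusted p = 0.303) and U4 1.14 (adjusted p = 0.00117). U4 had 81.6, 56 and 68.8 CPM in Z18fl and 93.5, 166 and 140 in the mutant, and U2 had 276, 212 and 191 against 309, 456 and 356. 7SK, which holds the elongation factor P-TEFb inactive, had 8408, 7569 and 8234 CPM in Z18fl and 9075, 12928 and 11338 in the mutant, with 5324, 5134 and 4292 in Clover. It rose by 0.58 (adjusted p = 0.00708) without replicate 3, with 94.2% of counts in the copy on chromosome 6. In all 6 libraries it had 0.24 (adjusted p = 0.826), and -0.14 when mutant replicate 2 was left out. 7SL, the RNA of the signal recognition particle, had 12506, 7764 and 8409 CPM in Z18fl and 11953, 33559 and 20706 in the mutant. These groups overlapped, and the log2 fold change of 1.38 without replicate 3 passed in edgeR (adjusted p = 0.0174) but not in DESeq2 (adjusted p = 0.136), and was 1.0 (adjusted p = 0.519) with all 6 libraries. Y RNA and ribosomal RNA subfamilies had no call in 4 and 3.

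**Figure D4:**
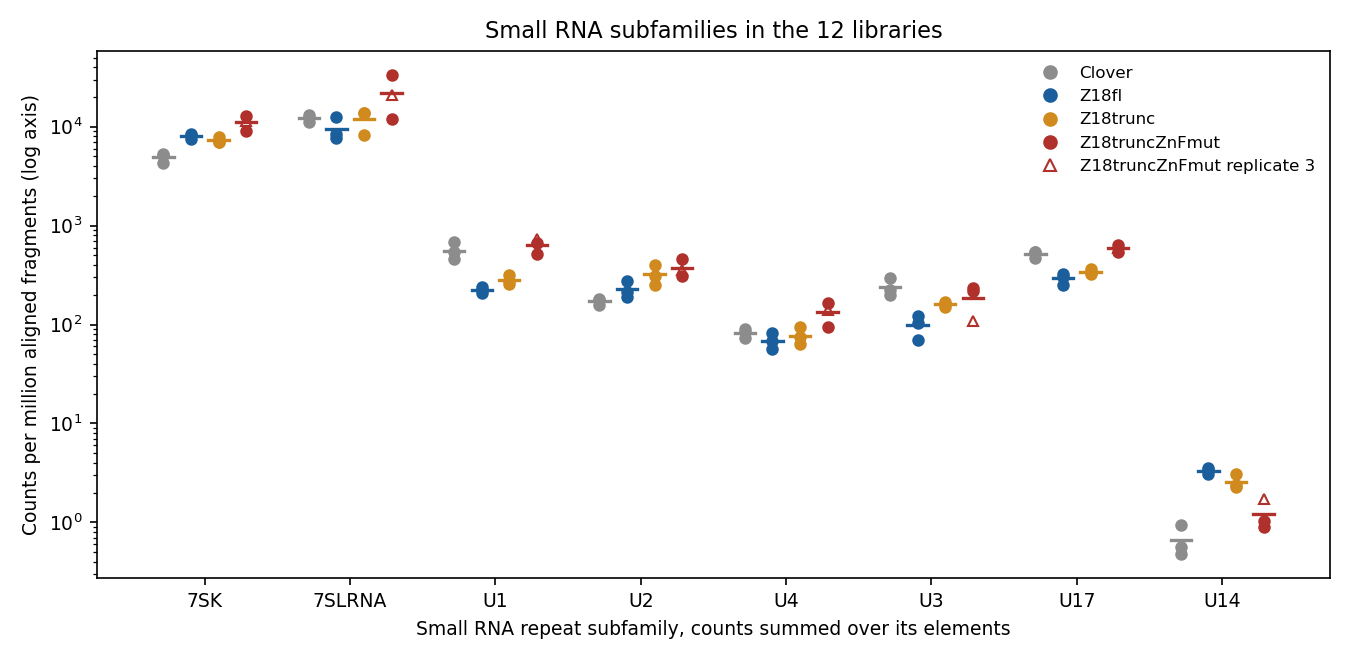
CPM on a log axis of 8 small RNA subfamilies, summed over copies, in all 12 libraries; points are libraries, short bars group means and the open triangle mutant replicate 3. U1 and U17 lie higher in Z18truncZnFmut than in Z18fl, U14 lies lower, and the 7SLRNA groups overlap.

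Whole families were tested on each strand, to set RNA read in the direction of the element apart from RNA read against it. With 6 libraries none of 93 families and strands rose (0.0%) or fell (0.0%) by edgeR. At an unadjusted p under 0.05, 7 passed (7.53%), 3 higher and 4 lower, and DESeq2 called 1 lower. Without replicate 3, 7 rose (7.53%) and 2 fell (2.15%). TcMar-Tigger on its own strand fell by 0.39 on the log2 scale (adjusted p = 0.00458), with 1161, 1167 and 1234 CPM in Z18fl and 803, 835 and 1915 in the mutant, where the highest value is replicate 3. The tRNA-derived SINEs fell by 0.62 (adjusted p = 0.0415).

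On their own strand, ERV1 rose by 0.42 (adjusted p = 0.00491; 3294, 3445 and 3551 CPM against 4128, 4171 and 6528), snRNA by 1.19 (adjusted p = 0.00517; 1059, 827 and 890 CPM against 1693, 2154 and 1945) and the family labelled ERVL? by 0.42 (adjusted p = 0.0415). On the other strand Gypsy rose by 0.73 (adjusted p = 0.00458), tRNA by 0.52, SVA by 0.37 and RTE-BovB by 0.34. In CPM, ERV1 and snRNA were higher in 3 of 3 mutant libraries, but CPM of most families was raised in replicate 3. With all 6 libraries edgeR gave ERV1 0.19 (adjusted p = 0.761) and snRNA 0.84 (adjusted p = 0.589) on the log2 scale. Without replicate 3, most of the rise of ERV1 in CPM lay in HERVH-int, described above. The ERV1 subfamilies HERVE_a-int and HERV3-int fell in the same libraries. The tRNA, SVA and RTE-BovB values on the other strand turned negative with replicate 3 kept and either mutant replicate 1 or 2 left out.

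Truncation and mutation were set side by side by placing Z18trunc between the groups, in a fit of 11 libraries without mutant replicate 3. Both steps share the Z18trunc libraries and sum to the whole difference. For several retroviral and transposon subfamilies the truncation step passed and the mutation step did not. HERVL18-int changed by -1.07 at truncation (adjusted p = 1.1e-05) and by 0.11 at mutation (adjusted p = 0.75). HERVE_a-int fell at truncation by 0.77 (adjusted p = 0.00026), Tigger5 by 0.72 (adjusted p = 0.0027), HERV3-int by 0.61 (adjusted p = 0.0017) and THE1B-int by 0.39 (adjusted p = 0.021), with mutation steps of -0.34, -0.36, -0.14 and -0.10 that did not pass.

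For others it was the mutation step that passed. U1 changed by 0.33 at truncation and rose by 1.18 at mutation (adjusted p = 0.0013), U17 by 0.22 and 0.90 (adjusted p = 0.0021 for mutation) and 7SK by -0.15 and 0.72 (adjusted p = 0.0039). Tigger3 changed by -0.21 at truncation and fell by 0.64 at mutation (adjusted p = 0.007). U14 had steps of -0.37 and -1.28, the latter with an adjusted p of 0.077, and U3 rose at truncation by 0.70 (adjusted p = 0.044). The difference between the steps was not tested.

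Single elements were placed the same way in a fit of all 12 libraries. L1M4c of HSP90AA1 fell at both steps, by 1.07 (adjusted p = 1.29e-05) and 0.67 (adjusted p = 0.0133), and the main HERVH-int piece rose at both, by 0.43 (adjusted p = 0.0156) and 0.62 (adjusted p = 0.0011). LTR12C on chromosome 1 rose by 0.95 (adjusted p = 0.000106) at truncation with 0.31 (adjusted p = 0.287) at mutation, LTR12D by 1.08 (adjusted p = 0.000101) with 0.51 (adjusted p = 0.0835), and FRAM had -1.85 (adjusted p = 0.000331) with -1.10 (adjusted p = 0.16). ERV3-16A3_I-int had -0.30 (adjusted p = 0.629) at truncation and -1.67 (adjusted p = 0.00362) at mutation.

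**Figure D5:**
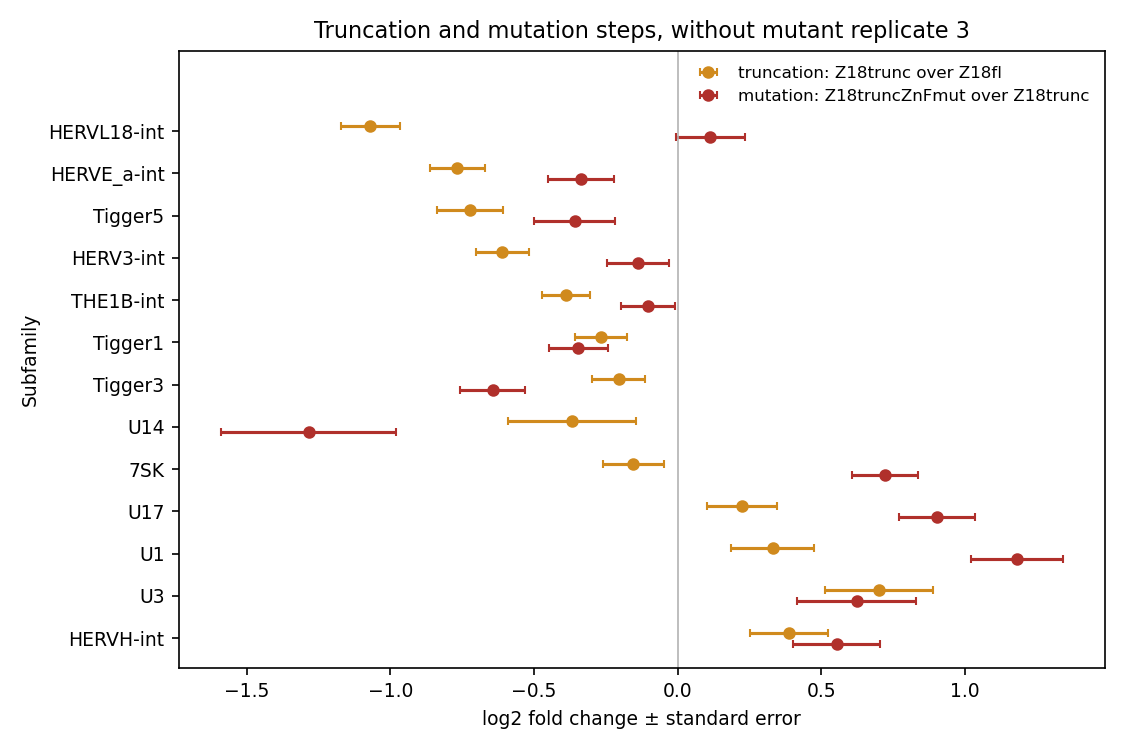
Log2 fold change with its standard error for the truncation step (Z18trunc over Z18fl) and the mutation step (Z18truncZnFmut over Z18trunc) of 13 subfamilies, without mutant replicate 3. HERVL18-int changed by -1.07 and 0.11, and U1 by 0.33 and 1.18.

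Against Clover, the same elements were placed in fits with TMM sizes alone. Element counts were 6.28% to 6.95% of aligned fragments in Clover, 8.10% to 8.77% in Z18fl and 8.37% to 16.3% in the mutant. The fitted values against Clover therefore rest on the scaling. In CPM, the mutant and Clover overlapped at HERVH-int on chromosome 1, as given above. HERVH-int on chromosome 1 was lower in Z18fl than in Clover by 1.36 on the log2 scale (fitted value -1.36, adjusted p = 6.49e-12) and in the mutant had -0.31 (adjusted p = 0.0272). L1M4c of HSP90AA1 had 1.69 (adjusted p = 2.64e-11) in Z18fl and -0.05 (adjusted p = 0.84) in the mutant, and LTR89 of EVC had -1.98 (adjusted p = 5.72e-06) and -0.67 (adjusted p = 0.0916). Both columns share the Clover libraries, so they are values side by side and no independent pair.

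Shares over a whole library had little power. The share of element counts in introns was 53.1% ± 0.714 (SD, n = 3) in Z18fl and 45.4% ± 6.04 (SD, n = 3) in Z18truncZnFmut. By library it was 53.5%, 52.2% and 53.5% against 47.7%, 49.96% and 38.6%, with no overlap. The exact permutation test gave a two-sided p = 0.1, the smallest that 3 against 3 allows (adjusted p = 0.933 over 14 measures). Without replicate 3 the difference was -4.21 percentage points (exact permutation p = 0.2, the smallest for 3 against 2). The other 13 measures, class shares among them, overlapped with all 6 libraries.

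MER4-int and HERVK3-int, which the study followed, had few counts here. The MER4-int stretch near the end of chromosome 14 (chr14:105032273-105039940, 10 elements) had 6, 6 and 7 counts in Z18fl and 7, 9 and 14 in Z18truncZnFmut. HERVK3-int at chr16:35517050-35524053 had 17, 15 and 11 against 13, 2 and 17. A difference at either was not detectable at this depth. The paper reports binding of MER4-int RNA to Z18trunc against Clover by PAR-CLIP with qPCR, a comparison other than this one. It also shows HERVK13-int on chr16 as an example of bound RNA, and that element is not reported here.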

How the data were processed

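RNA crosslinked to V5-tagged proteins was measured in 12 libraries, of which the 3 Z18fl and 3 Z18truncZnFmut libraries were compared. Sample titles gave the groups. The authors trimmed reads (cutadapt 4.6 in the submitters' processing notes) and ran SQuIRE, which assigns reads aligned to hg38 to single repeat elements and strands, 1 file per library without pooling; the aligner and the SQuIRE version are not given in the sources used here. The deposited totals are expected counts, unique reads plus a share of multimapping reads, and the deposited unique reads and aligned fragments are counts. The deposited score is the percent of aligning reads assigned to an element. The authors' FPKM values entered no test.

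Expected counts on the element's strand were rounded and tested with edgeR 4.0.16 (limma 3.58.1, R 4.3.3) by quasi-likelihood with TMM scaling and filterByExpr (minimum count 10, minimum total 15), at a Benjamini-Hochberg adjusted p under 0.05. Elements of 6 classes were tested singly, and small RNA subfamilies joined the sums by subfamily and by family. Family fits used the effective library sizes of the subfamily fit. CPM used aligned fragments. Annotation came from GENCODE release 44, with an element called exonic at 50% overlap, and positions count from 1. Python 3.11.15, numpy 2.4.6, pandas 2.3.3, scipy 1.17.1, pysam 0.24.0 and matplotlib 3.10.9 did the rest.

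The comparison, its lists and its named elements were chosen with earlier results of these data known. Named subfamilies lay at either end of the fold changes among those called whose higher group averaged 200 counts or more, plus the subfamily with most counts of each list. Named elements were called ones without overlap between groups whose higher group averaged 50 counts or more and a score of 90 or more. The fullest copies of named subfamilies, elements with at least 500 mean counts and other elements of the HSP90AA1 and HSPA8 genes were added after values were seen. Some of these elements are not reported here. The main tests did not pair libraries by replicate number. Deviations of same-numbered libraries correlated weakly, at 0.0368, 0.0642 and 0.0889, yet above those of the other pairs (-0.0702 to 0.0036). Whether the numbers mark shared handling was not tested. Replicates differed by more than sampling noise (chi-square per degree of freedom 1.69 to 2.96). Tested on simulated data, edgeR recovered 2.86% of 1.5-fold, 18.5% of 2-fold and 86.0% of 4-fold changes among 17052 loci with 6 libraries, and 22.2%, 74.6% and 98.4% among 973 subfamilies. Of 63 calls at loci 6 were false, and of 129 at subfamilies 4. The simulation changed 70, 65 and 50 loci, far fewer than the 1529 and 1136 called, so its rates need not hold for the real fit. Alternatives were DESeq2 1.42.0, sizes from aligned fragments, no filter, either strand, unique reads, counts net of the other strand, thinning, all 12 libraries, a replicate block and each library left out.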

Additional observations from a re-analysis of the deposited data

How the results depend on the processing

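TMM gave mutant replicate 3 a factor of 0.59 over loci and 1.35 over subfamilies, and sizes from aligned fragments moved all subfamilies by 0.51 on the log2 scale with 6 libraries and by -0.14 without it. At loci, with 1529 higher and 1136 lower as reported, DESeq2 gave 930 and 662 (585 and 345 without replicate 3), sizes from aligned fragments 870 higher (642), counts net of the other strand without replicate 3 1012 higher, and an unadjusted p 2865 and 2279 (3040 and 2589). The replicate block gave 1528 and 1127, and without replicate 3 it left 1.78% of loci higher and 1.17% lower, and each library correlated best with its own number. Leaving out each library gave 751 to 1507 higher and 565 to 969 lower, with the lowest counts without a Z18fl library. Thinning to the smallest total gave 1337 and 985.

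For subfamilies higher (0 as reported), DESeq2 gave 4 (51 without replicate 3), a fit of all 12 libraries 5, sizes from aligned fragments without replicate 3 31, the replicate block without it 4, net counts 17 (23), tested loci 95 (80), an unadjusted p 59 (146), unique reads without replicate 3 51, and leaving out libraries 0 to 66. For subfamilies lower (4 as reported), the values were DESeq2 13 (28), all 12 libraries 17, aligned fragments 0 (68), either strand 0, replicate block 0, net counts 15 (30), tested loci 87 (88), an unadjusted p 67 (93), unique reads 0 (26) and leaving out libraries 0 to 40. For families higher (0 as reported), DESeq2 without replicate 3 gave 10, aligned fragments 5, unique reads 11, an unadjusted p 3 (16) and leaving out libraries 0 to 7, and for families lower DESeq2 gave 1 (5), all 12 libraries 1, aligned fragments without replicate 3 13, unique reads 3, an unadjusted p 4 (10) and leaving out libraries 0 to 2. The cause of these moves was not tested.

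Directions turned as follows on the log2 scale. U1 was -0.29 in unique reads (-0.0019 without replicate 3). Leaving out 1 library at a time gave -0.14 to 0.58 for 7SK, -0.17 to 0.33 for AluY, -0.19 to 0.31 for AluJb, -0.22 to 0.39 for LTR12C and, on the other strand, -0.14 to 0.34 for RTE-BovB, -0.23 to 0.37 for SVA and -0.16 to 0.52 for tRNA. In each the highest value was without mutant replicate 3. The replicate block gave -0.037 for AluY, -0.075 for AluJb, -0.074 for LTR12C, -0.038 for RTE-BovB, -0.11 for SVA and -0.0065 for tRNA. AluJb was also -0.0081 with 12 libraries and -0.0032 on either strand, LTR12C -0.045 on either strand and tRNA -0.13 in unique reads. Of the values of named subfamilies under the alternatives, 330 kept direction and call, 142 gained a call, 37 lost it and 17 turned. For families 107 kept both, 35 gained a call and 11 turned, and for single elements 480 kept both, 5 gained a call, 12 lost it and none turned.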
